A study of Mus musculus with 13 samples.

Results

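The translation initiation and elongation factors are the proteins that assemble a ribosome on an mRNA and then move it along the coding sequence. They were taken here as the genes of the deposited expression table whose symbol begins with Eif or Eef followed by a number. Of 77 such symbols, 8 pseudogenes (symbols with -ps) and 4 eIF2 kinases (Eif2ak) were left out, which left 65 of the 53465 genes in the table. A gene entered the tests when it reached 1 TPM (the usual unit of transcript share, a gene's part of the library corrected for its length) in at least 3 libraries, and 63 of the 65 did. The other 2 were Eif2s3y, the Y-linked copy of an eIF2 subunit gene, which was at 0 TPM in all 13 libraries, and Eif2c5, whose symbol is that of an Argonaute-family gene rather than of a translation factor and which stayed at or below 0.558 TPM. Eif2c5 was kept because the symbol matches.

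Most eukaryotic mRNAs are translated after eIF4E, the cap-binding subunit, joins the scaffold eIF4G and the helicase eIF4A on the 5′ cap, while eIF2 carries the initiator tRNA to the small ribosomal subunit together with eIF1, eIF1A, eIF3 and eIF5. The 4E-binding proteins hold eIF4E away from eIF4G, eIF2B recharges eIF2 with GTP, eEF1A delivers aminoacyl-tRNA during elongation, and eEF2 moves the ribosome by a codon. Several of these genes are known targets of MYC, the oncogene used to make the tumors, and translation capacity is a well-known limit on the growth of MYC-driven tumors.

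The libraries were made from bulk tissue of 3 untreated ovaries of wild-type (WT) C57BL/6 mice and of 10 MP tumors, also untreated. A mouse age of 8 to 12 wk is listed for the samples of both groups. MP tumors are EPO-GEMM tumors (an electroporation-based mouse model) of the genotype Myc;p53-/-, raised by delivering plasmids for Cas9 with a guide RNA against Trp53, a MYC transposon and its transposase to the ovary of female WT C57BL/6 mice aged 8 to 12 wk. Delivery was not restricted to a cell type, a tumor can hold several clones, and whole tumor tissue was extracted, so host cells are included. The library names carry an IGO number, and all 3 WT ovaries share theirs with MP tumors 1 to 3, while MP tumors 4 to 6 carry another and MP tumors 7 to 10 another still.

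TPM times gene length moved in even steps within each library, and with a step taken as 1 read the depth came to 31445004 to 64013840 per WT ovary and 3892690 to 19906507 per MP tumor. MP tumor 2 stood apart, with 55.1% of its TPM in 10 genes, against 7.92% to 20.6% in the other tumors. Trp53, the gene targeted by the guide RNA, was at 80.7 to 85.4 TPM in WT ovaries, at 4.30 to 26.0 TPM in MP tumors 1 to 9 and at 187 TPM in the library labelled MP tumor 10. The summed TPM of 5 granulosa markers and of 4 luteal markers was 3225 to 5990.0 and 25011 to 27844 in WT ovaries, and at most 1507 and 782 in MP tumors. The summed TPM of 5 epithelial markers (Krt7, Krt8, Krt18, Epcam and Pax8) was 161 to 182 in WT ovaries and 5.49 to 946 in tumors. It was above the ovaries in MP tumors 1, 4 and 9, with Krt7 and Epcam called lower over all libraries and Krt8 and Krt18 reaching 425 and 496 TPM. In such bulk tissue, fewer cells of a type and less RNA per cell cannot be told apart.

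The translation factors together took 1.99% to 2.22% of all TPM in WT ovaries and 2.00% to 3.65% in MP tumors, with MP tumor 2 the lowest. Eef1a1, the main gene of eEF1A and the most abundant member, alone took 0.719% to 0.809% in WT ovaries and 0.785% to 1.62% in tumors. In limma across all genes, on log2(TPM + 1) with Benjamini-Hochberg adjustment and a threshold of 0.05, 7 of the 63 tested factors were higher in MP tumors (11.1%) and 2 were lower (3.17%). Over all 17277 genes tested, 2.51% were called higher and 14.3% lower, and 5.63% were higher and 27.4% lower at an unadjusted P value under 0.05. The median log2 fold change was 0.48 over the factors and -0.58 over all genes. After median-of-ratios scaling, which centres the typical gene near 0, 15 factors were called higher and 3 lower, beside 7.37% and 11% of all genes, and 40.2% of all calls were higher, against 15% on TPM as deposited. With 2 ovaries in place of 3, fewer factors were called higher. There were 2 without WT ovary 1, 2 without WT ovary 2 and 1 without WT ovary 3, beside 0.781%, 0.886% and 0.544% of all genes. The lower calls were 1, 2 and 2, beside 6.7%, 6.92% and 6.86%. Of the 9 calls, Eif5a and Eif4e1b passed in all 24 alternative settings, and Eif3i and Eef1g in only 9 and 8 of them. Without 1 ovary at a time, Eef1akmt4, Eif3i, Eif3k, Eif1a and Eef1g missed the threshold in 3 of the 3 fits (limma adjusted P from 0.0799 to 0.184), Eef1b2 without WT ovary 3 (0.0539) and Eif4e3 without WT ovary 1 (0.0551). Without MP tumor 2, 9 factors were higher and 2 lower, beside 3.68% and 13.9% of all genes. Without the library labelled MP tumor 10 the counts were 7 and 3, beside 2.71% and 17.2%.

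**Figure D1:**
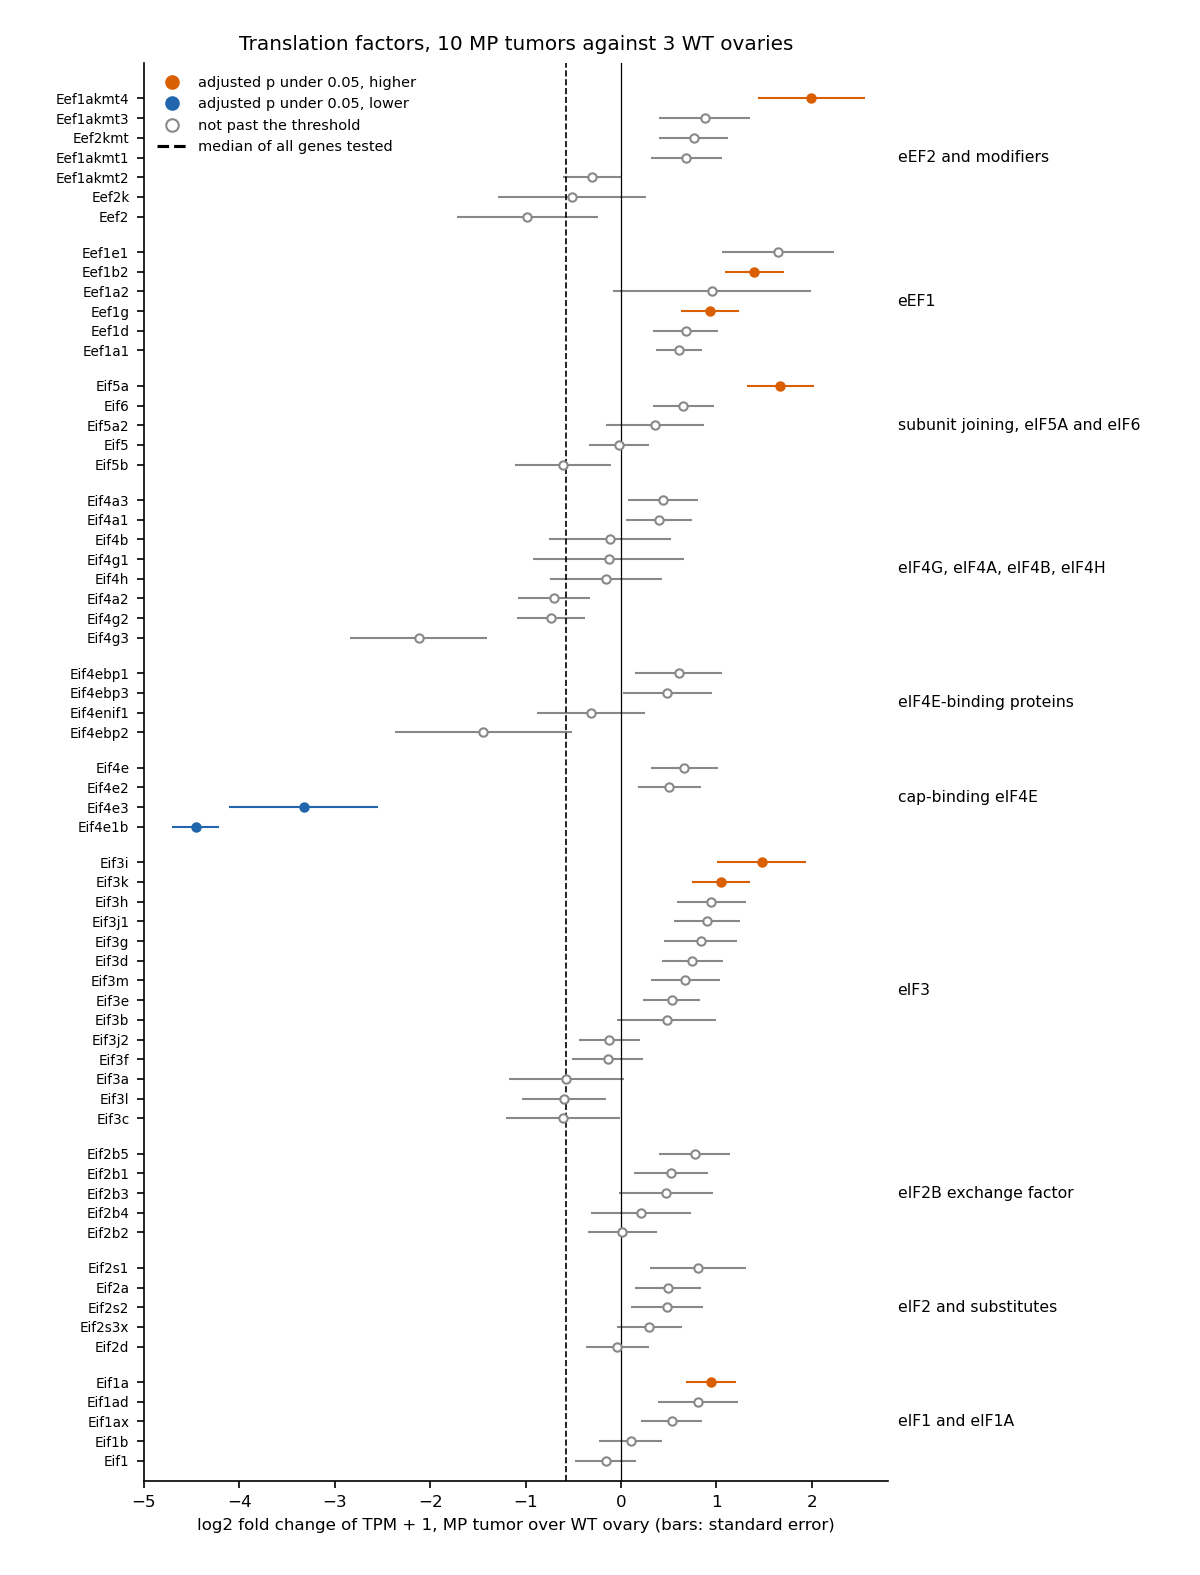
Log2 fold change of TPM + 1 (MP tumor over WT ovary, bars are standard errors) for the 63 factors tested, grouped by role, with the median of all genes (-0.58) as a dashed line. The 7 higher calls are spread over eIF1A, eIF3, eIF5A, eEF1 and the eEF modifiers, and both lower calls are eIF4E genes.

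Every tumor was above every WT ovary for 7 of the 63 factors and below every WT ovary for 3, where 3.02% and 16.4% of all genes tested showed the same separation. The factors varied more among tumors than among ovaries in 63 of 63 cases, with a median coefficient of variation of 42.1% in MP tumors and 6.88% in WT ovaries. The same count was not made over all genes. The tumor libraries are also shallower and carry several IGO numbers, so the spread is not read as a trait of the factors. Eif1a was the most even factor among tumors (19.1%) and Eef1a2 the least (214%). Of 4 proliferation markers 1 was called higher, and their summed TPM was 195 to 338 in WT ovaries and 194 to 863 in MP tumors. The part of proliferation in the higher factors was not tested.

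**Figure D2:**
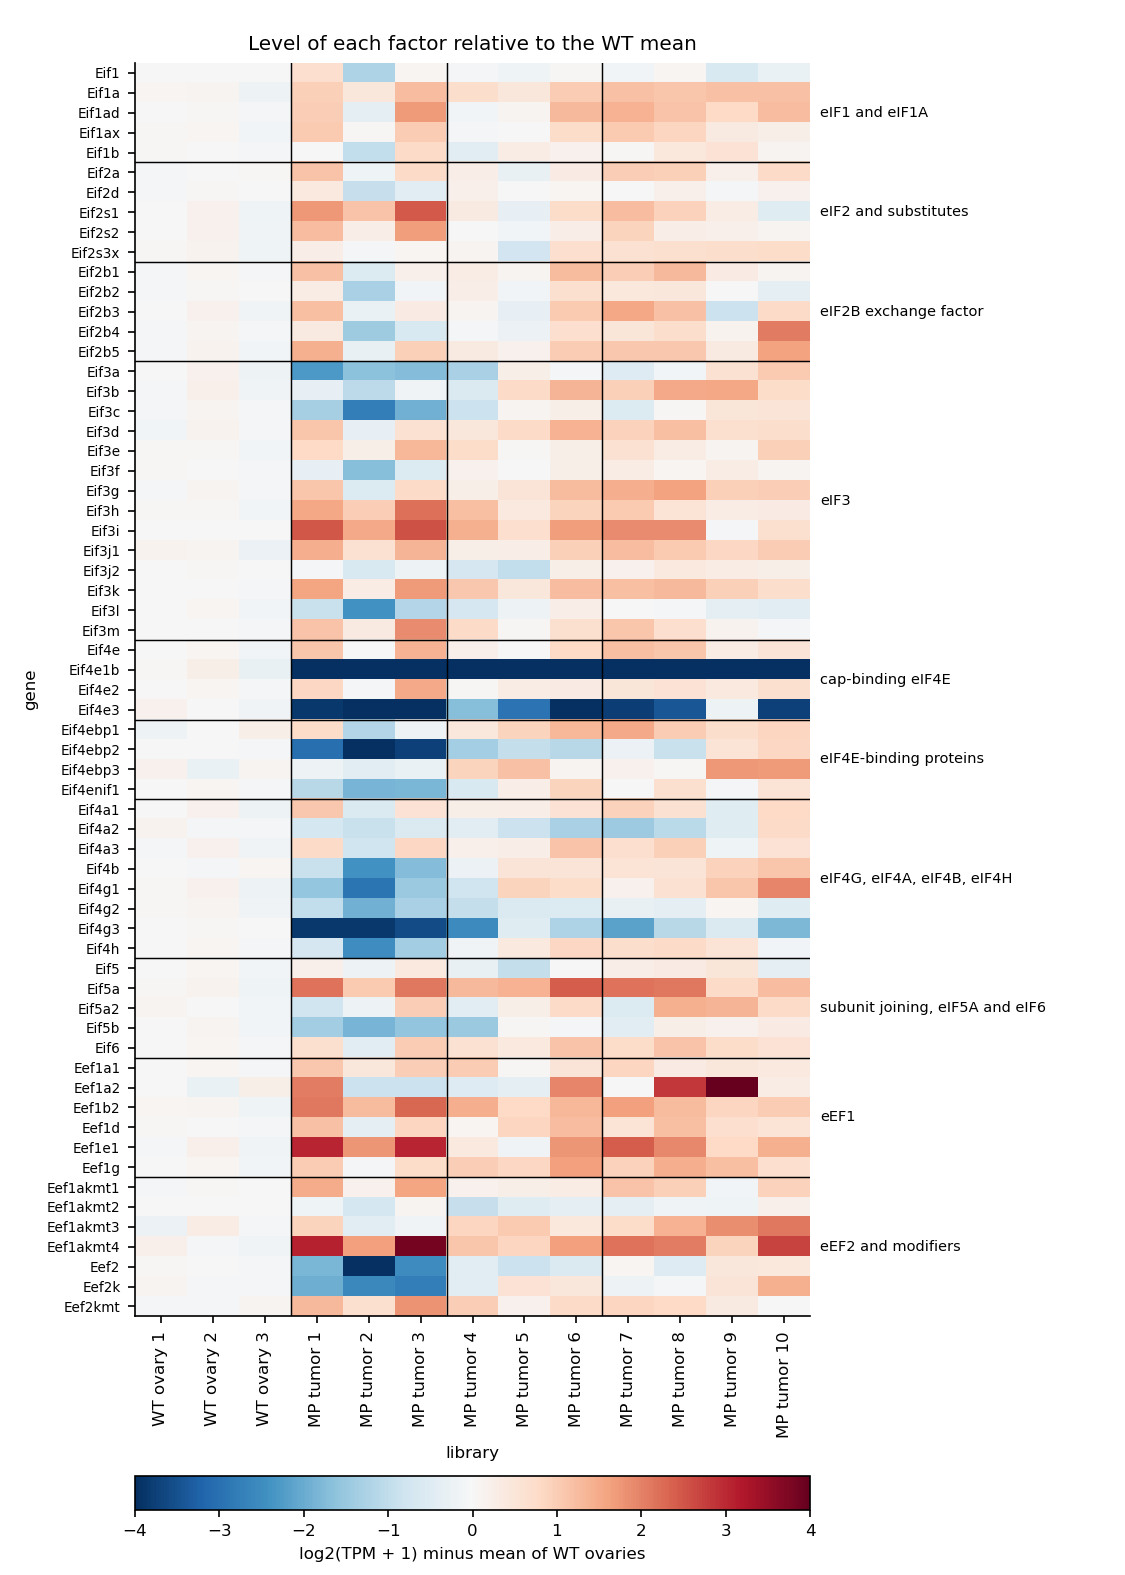
Each row is a factor and each column a library, coloured by log2(TPM + 1) minus the mean of the 3 WT ovaries, with values beyond 4 in either direction drawn at the end of the scale. Eif4e1b is at least 4 below the WT mean across the MP tumors, Eif5a and Eef1b2 are above it throughout, and a block of large factors (Eif3a, Eif3c, Eif4g1, Eif4g3, Eef2) is low in MP tumors 1 to 3.

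Eif5a (ENSMUSG00000078812, chromosome 11, 69916714 to 69921958, strand - of GRCm38) encodes eIF5A, the hypusine-bearing factor that helps the ribosome through difficult peptide bonds. It was at 734, 788 and 628 TPM in the WT ovaries and at 1219 to 3798 TPM (median 2485) in the MP tumors. Every tumor exceeded every ovary, and the lowest tumor (MP tumor 9, 1219 TPM) still stood clear of the highest ovary. The mean of the ovaries was 717 TPM (SD 81.6, n = 3) and that of the tumors 2442 TPM (SD 923, n = 10), 3.41 times higher (log2 fold change 1.67, standard error 0.35, adjusted P = 0.00435 in limma). Over the alternative settings its log2 fold change ran from 1.52 to 2.39. Its paralog Eif5a2 was low, at 7.18, 6.41 and 5.98 TPM in WT ovaries and 3.32 to 19.3 TPM (median 9.75) in MP tumors, with overlapping groups (log2 fold change 0.36, standard error 0.52, adjusted P = 0.636 in limma). Of the other factors of this role, Eif6, which keeps the large subunit from joining too early, was at 93.0, 100.5 and 90.8 TPM and 69.7 to 210.2 TPM (median 153) (log2 fold change 0.65, standard error 0.32, adjusted P = 0.164 in limma). Eif5, the GTPase activator of eIF2, and Eif5b, the GTPase of subunit joining, had log2 fold changes of -0.02 and -0.61, neither past the threshold.

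The elongation factor eEF1 held 2 of the 7 higher calls, both in its exchange complex, among 6 genes tested. Of all genes, 2.51% were called higher. Eef1b2 (ENSMUSG00000025967, chromosome 1, 63176825 to 63180486, strand +) encodes the subunit that exchanges GDP for GTP on eEF1A. It was at 763, 791 and 644 TPM in the WT ovaries and at 1268 to 3584 TPM (median 1796) in the MP tumors, without overlap. The ratio of means was 2.79 (log2 fold change 1.40, standard error 0.31, adjusted P = 0.00694 in limma). Eef1g (ENSMUSG00000071644, chromosome 19, 8967041 to 8978479, strand +), the anchoring subunit, was at 487, 505 and 441 TPM and 450.3 to 1499 TPM (median 922). MP tumor 2 (450.3 TPM) fell among the ovaries and the other 9 tumors lay above them (log2 fold change 0.93, standard error 0.31, adjusted P = 0.0492 in limma). Eef1d, the third subunit of the exchange complex, was at 121, 118 and 110.2 TPM and 89.0 to 274 TPM (median 197) and did not pass (log2 fold change 0.68, standard error 0.34, adjusted P = 0.173 in limma). Eef1e1, a scaffold of the tRNA synthetase complex that shares the name, was at 25.9, 31.4 and 24.2 TPM in ovaries and 24.3 to 232 TPM (median 94.4) in tumors. MP tumors 1 and 3 were its highest (232 and 229.5 TPM) and MP tumor 5 lay among the ovaries (log2 fold change 1.65, standard error 0.59, adjusted P = 0.0672 in limma).

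Eef1a1 was at 7736, 8085 and 7187 TPM in the WT ovaries and at 7849.7 to 16185 TPM (median 10717) in the MP tumors. MP tumor 5 (7849.7 TPM) fell among the ovaries and the other 9 tumors were above them (log2 fold change 0.61, standard error 0.24, adjusted P = 0.0961 in limma). Eef1a1 and Eif5a have many processed pseudogenes, which can split reads of the parent gene, so their levels carry that uncertainty. Eef1a2, the eEF1A isoform of muscle and neurons, was at 0.840, 0.521 and 1.13 TPM in WT ovaries, and in tumors its values ran from 0 to 61.2 TPM (median 1.01). MP tumor 9 held 61.2 TPM, MP tumor 8 11.8 TPM, MP tumor 1 6.48 TPM and MP tumor 6 5.96 TPM, while MP tumors 2 and 3 were both listed at 0. The summed TPM of 6 skeletal muscle markers was 6.43 in MP tumor 9 and 1757 in MP tumor 1, and that of 5 neuronal markers was 10.6 and 112. The sums of the ovaries were 7.79 to 9.59 TPM and 38.2 to 57.4 TPM, most of it from 1 gene in each list, Mylpf (7.15 to 8.99 TPM) and Tubb3 (34.2 to 51.6 TPM). The neuronal sum of MP tumor 1 was also nearly all Tubb3, which reached 112 TPM. Ckm, the muscle creatine kinase, was at most 0.324 TPM in the ovaries and at least 0.904 TPM in every tumor. Mylpf had a tumor median of 15.7 TPM. The other muscle markers, Acta1, Tnnt3, Myh1 and Myh4, had tumor medians of 0.483, 0.698, 0 and 0 TPM and each fell to 0 in some tumor. The part of muscle or neuronal cells in Eef1a2 was not tested.

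The eEF2 and modifier genes held 1 higher call among 7 tested, beside 2.51% of all genes. Eef1akmt4 (ENSMUSG00000115219, chromosome 16, 20611593 to 20619007, strand +) encodes a lysine methyltransferase of eEF1A. It was at 13.1, 10.7 and 10.1 TPM in the WT ovaries and at 21.1 to 172 TPM (median 43.5) in the MP tumors, all 10 above the ovaries, with MP tumors 3 and 1 the highest (172 and 102 TPM). The ratio of means was 5.30 (log2 fold change 1.99, standard error 0.56, adjusted P = 0.0250 in limma). In GENCODE vM21, 31.7% of its exon bases are also annotated to other genes, mainly Gm49333 on the same strand, so the reads counted for it are uncertain. The other methyltransferases of eEF1A and eEF2 (Eef1akmt1, Eef1akmt2, Eef1akmt3 and Eef2kmt) had log2 fold changes of 0.69, -0.30, 0.88 and 0.76, and none passed. Eef2, the translocase, was at 3329, 3213 and 3119 TPM in WT ovaries and 200.2 to 4408 TPM (median 2208) in MP tumors. Its 3 lowest values were those of MP tumors 1, 2 and 3 (902, 200.2 and 556 TPM), and MP tumors 4 to 10 straddled the ovaries at 1762 to 4408 TPM (median 2381). Eef2k, the kinase that inactivates eEF2, was at 35.1, 31.0 and 31.6 TPM and 3.97 to 89.7 TPM (median 29.1), again lowest in MP tumors 1 to 3 (7.59, 4.62 and 3.97 TPM). Neither gene passed over all libraries (log2 fold change -0.98, standard error 0.74, adjusted P = 0.361 for Eef2 and log2 fold change -0.51, standard error 0.78, adjusted P = 0.655 for Eef2k in limma).

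**Figure D3:**
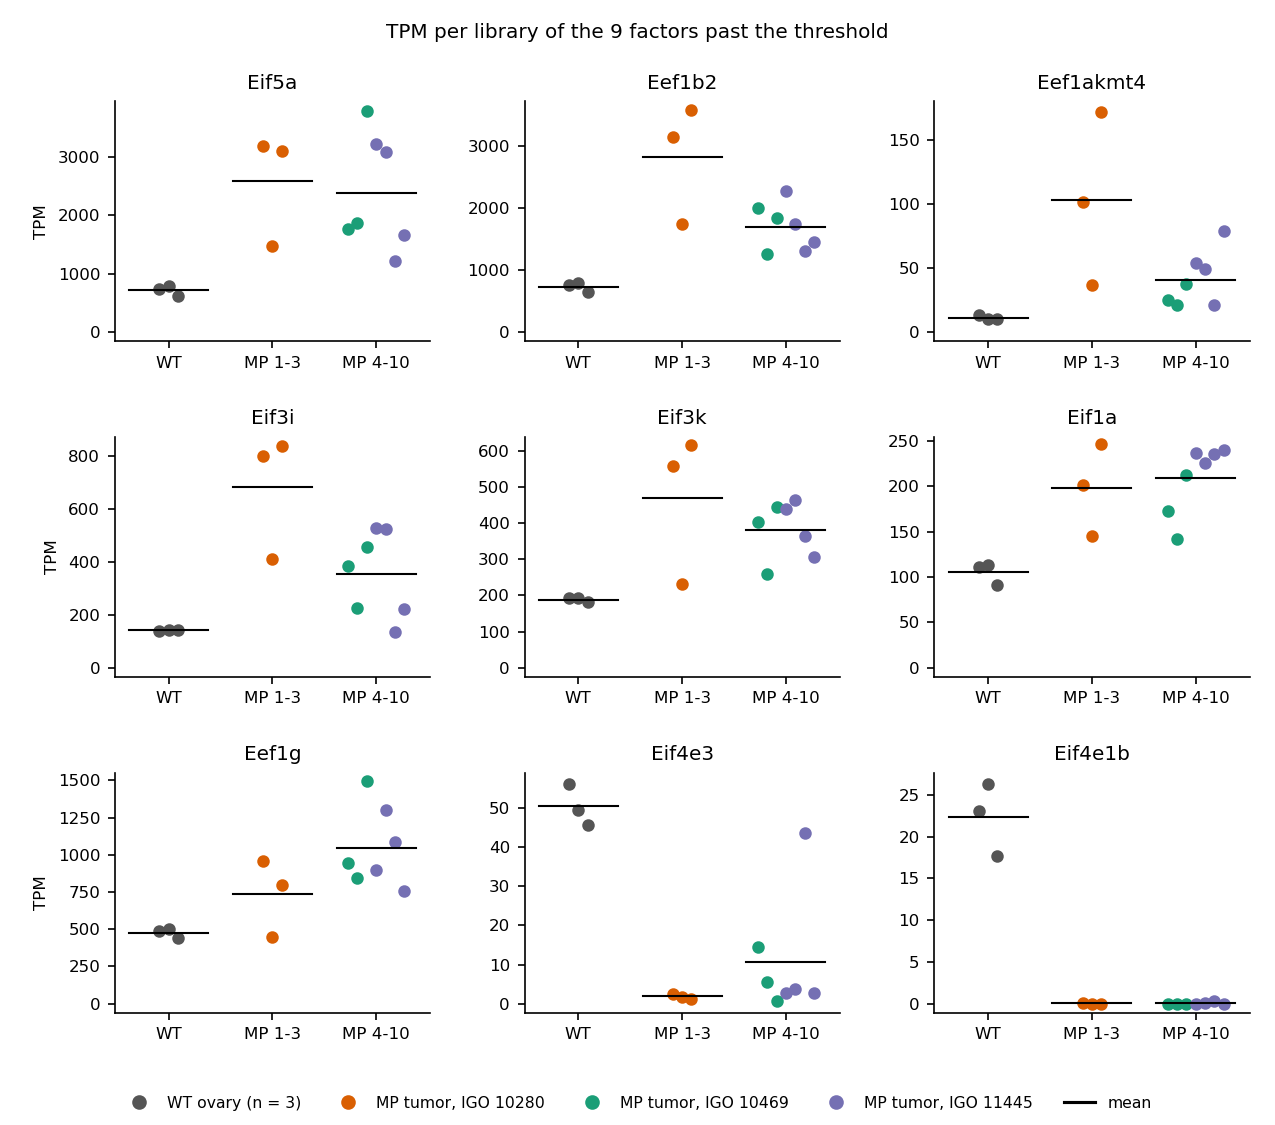
TPM of the 9 factors past the threshold in each library, in 3 columns per panel (WT ovaries, MP tumors 1 to 3 and MP tumors 4 to 10), with points coloured by the IGO number and bars for means. Eif5a, Eef1b2, Eef1akmt4, Eif3k and Eif1a separate without overlap, 1 tumor reaches the ovaries for Eif3i and Eef1g, Eif4e3 nears them in MP tumor 9 alone, and Eif4e1b is at or near 0 in the tumors.

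Of the initiation factors that ride on the small subunit, Eif1a (ENSMUSG00000057561) was the 1 called among 5 of the eIF1 and eIF1A role, beside 2.51% of all genes called higher. It encodes eIF1A, which stabilises the scanning ribosome, and was at 111, 113 and 90.7 TPM in the WT ovaries and 142 to 246 TPM (median 219) in the MP tumors. All 10 tumors were above the ovaries and the tumors lay close together (log2 fold change 0.94, standard error 0.26, adjusted P = 0.0246 in limma, ratio of means 1.96). Eif1ax, an X-linked gene of nearly the same protein, could share its reads and was at 94.0, 94.7 and 82.8 TPM and 87.2 to 188 TPM (median 133) (log2 fold change 0.53, standard error 0.32, adjusted P = 0.250 in limma). Eif1, which guards start codon choice, was at 349, 350.0 and 342 TPM and 148 to 548 TPM (median 326), and its paralog Eif1b at 141, 139 and 131 TPM and 69.4 to 233 TPM (median 152), both with overlapping groups and log2 fold changes of -0.16 and 0.10.

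The eIF2 complex and the factors that can stand in for it had 0 calls among 5 tested in limma, also at an unadjusted P value under 0.05, where 5.63% of all genes were higher and 27.4% lower. Eif2s1, the alpha subunit that the stress kinases phosphorylate, was at 92.1, 105 and 81.9 TPM in WT ovaries and 66.2 to 505 TPM (median 166) in MP tumors. MP tumors 1 and 3 were highest (313 and 505 TPM) and MP tumors 5 and 10 were below the ovaries (log2 fold change 0.81, standard error 0.50, adjusted P = 0.267 in limma). The beta and gamma subunits Eif2s2 and Eif2s3x had log2 fold changes of 0.48 and 0.30, and Eif2a and Eif2d, which can bring initiator tRNA without eIF2, 0.49 and -0.04. The 5 subunits of eIF2B, the exchange factor of eIF2, also had 0 calls, adjusted or not, beside the same shares, with log2 fold changes from 0.02 to 0.77. Its catalytic subunit Eif2b5 was at 84.0, 94.7 and 80.1 TPM and 70.1 to 262 TPM (median 171), with 9 tumors above every ovary and MP tumor 2 below them (log2 fold change 0.77, standard error 0.37, adjusted P = 0.162 in limma). These counts moved with the scaling. After median-of-ratios scaling Eif2b5 was called higher (log2 fold change 1.48, standard error 0.45, adjusted P = 0.0352 in limma), as the only one of the 10 genes, beside 7.37% of all genes, and with the length trend removed Eif2b1 and Eif2b5 were, beside 11.2%. Within the IGO number of the ovaries and with that scaling, all 5 tested eIF2 genes and all 5 eIF2B genes were called higher, beside 25.8%.

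Among the 14 genes of eIF3, the large scaffold that holds the small subunit, 2 were called higher and 0 lower, beside 2.51% and 14.3% of all genes. At an unadjusted P value under 0.05 in limma 6 were higher and 0 lower, where 5.63% and 27.4% of all genes were. Eif3k (ENSMUSG00000053565, chromosome 7, 28971372 to 28981864, strand -), a small subunit, was at 192, 192 and 181 TPM in the WT ovaries and 231 to 616 TPM (median 420.1) in the MP tumors, without overlap (log2 fold change 1.05, standard error 0.31, adjusted P = 0.0297 in limma, ratio of means 2.17). Eif3i (ENSMUSG00000028798, chromosome 4, 129591960 to 129600648, strand -), which binds the core through eIF3b, was at 139, 143 and 141 TPM and 136 to 835 TPM (median 433). MP tumor 9 (136 TPM) was below the ovaries and the other 9 tumors were above them (log2 fold change 1.47, standard error 0.47, adjusted P = 0.0428 in limma). For Eif3h, another subunit, every tumor was also above every ovary (528 to 586 TPM against 693 to 2588 TPM), which did not pass (log2 fold change 0.95, standard error 0.36, adjusted P = 0.0814 in limma). The other 3 genes past the unadjusted P value were Eif3j1, Eif3g and Eif3d, with log2 fold changes of 0.91, 0.83 and 0.75 (limma adjusted P = 0.0822, 0.144 and 0.117), and 43.3% of the exon bases of Eif3d overlap a gene on the opposite strand. Eif3a, Eif3c and Eif3l had log2 fold changes of -0.57, -0.61 and -0.60, close to the median of all genes, none past the threshold. After median-of-ratios scaling 14 of the 14 values were above 0, from 0.11 to 2.19, so a negative sign for Eif3a, Eif3c or Eif3l depends on the scaling. Eif3j1 and Eif3j2 are near copies, and their reads could be split between them.

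The cap-binding group of 4 genes held both lower calls, where 14.3% of all genes were called lower. Eif4e1b (ENSMUSG00000074895, chromosome 13, 54783998 to 54788459, strand +), an eIF4E variant known from oocytes, was at 23.1, 26.3 and 17.7 TPM in the WT ovaries, with 547 to 776 reads each. In the MP tumors it was at 0 to 0.334 TPM, with 5 reads in all, spread over 3 of the 10 tumors. The call held in limma (log2 fold change -4.46, standard error 0.25, adjusted P = 1.51e-08), but the size depends on the value added before the logarithm, and was -7.39 with 0.1 in place of 1. Oocyte markers fell with it: 8 of 8 were called lower, their summed TPM was 320.2 to 472 in WT ovaries and 1.73 to 32.4 in MP tumors, and 0 of the 8 were at 0 in every tumor. Zp3, an egg coat protein, went from 77.1 to 106 TPM in the ovaries down to 0 to 2.60 TPM.

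Eif4e3 (ENSMUSG00000093661, chromosome 6, 99625135 to 99666771, strand -), an eIF4E variant that binds the cap in an atypical way, was at 56.2, 49.3 and 45.5 TPM in the WT ovaries and 0.706 to 43.5 TPM (median 2.8) in the MP tumors. All tumors were below all ovaries, but MP tumor 9 (43.5 TPM) came close to them and MP tumor 4 was the next highest (14.6 TPM). The ratio of means was 0.158 (log2 fold change -3.33, standard error 0.78, adjusted P = 0.00898 in limma). Summed stromal markers were also highest in MP tumor 9, at 2785 TPM against 18.3 to 1189 TPM in the other tumors (114 TPM in MP tumor 4) and 708 to 1361 TPM in the ovaries. Summed epithelial markers were highest in MP tumors 4 and 9 (946 and 335 TPM). Whether either list bears on Eif4e3 was not tested. The main cap-binding gene Eif4e went the other way in value, at 58.6, 61.4 and 54.0 TPM and 58.1 to 153 TPM (median 91.7), with 8 tumors above every ovary (log2 fold change 0.66, standard error 0.35, adjusted P = 0.196 in limma). Eif4e2, which represses rather than promotes translation, was at 39.6, 41.5 and 36.7 TPM and 37.0 to 113 TPM (median 53.7) (log2 fold change 0.51, standard error 0.33, adjusted P = 0.291 in limma).

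The partners of eIF4E had 0 calls over all libraries in limma among the 8 genes of eIF4G, eIF4A, eIF4B and eIF4H and the 4 eIF4E-binding genes, and 1 of the 12 was lower at an unadjusted P value under 0.05, where 27.4% of all genes were. That 1 was the scaffold gene Eif4g3, at 68.2, 70.6 and 68.4 TPM in WT ovaries and 3.79 to 49.1 TPM (median 16.9) in MP tumors. Every tumor was below every ovary, with MP tumors 1 to 3 lowest (3.87, 3.79 and 4.86 TPM), but it missed the threshold (log2 fold change -2.12, standard error 0.72, adjusted P = 0.0550 in limma). Eif4g1, the main scaffold, was at 219.6, 244 and 185 TPM and 27.4 to 842 TPM (median 285.5), below the ovaries in MP tumors 1 to 4 and above them in 6 others (log2 fold change -0.13, standard error 0.79, adjusted P = 0.923 in limma). The helicase gene Eif4a1 was at 530.5, 595 and 458 TPM and 352 to 1105 TPM (median 779), and its paralog Eif4a2 at 334, 296 and 288 TPM and 111 to 523 TPM (median 178), below the ovaries in 9 of 10 tumors and at 523 TPM in the library labelled MP tumor 10. Neither passed (log2 fold change 0.40, standard error 0.34, adjusted P = 0.421 for Eif4a1 and log2 fold change -0.71, standard error 0.38, adjusted P = 0.201 for Eif4a2 in limma), and without MP tumor 10 Eif4a2 was called lower (adjusted P = 0.0424 in limma). The genes of 4E-binding proteins had opposite signs. Eif4ebp1 was at 87.0, 100.2 and 118 TPM and 43.9 to 290.0 TPM (median 175), and Eif4ebp2 at 144, 147 and 140.4 TPM and 5.48 to 254 TPM (median 69.8). Their log2 fold changes were 0.61 and -1.44 on TPM and 1.32 and -0.75 after median-of-ratios scaling. Eif4ebp2 did not pass in either, and Eif4ebp1 was called higher in the scaled fit (limma adjusted P = 0.0123). The small group is completed by Eif4ebp3 (0.49), of whose exon bases 67.3% are shared with other genes, and by the eIF4E transporter Eif4enif1 (-0.31).

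To set members against each other within a library, 8 ratios of paralogs or partners were compared as log2 of TPM + 1 of each gene, with an exact permutation test (2-sided, over all choices of 3 libraries from the 13, for which P cannot be under 0.0035) and Benjamini-Hochberg adjustment over the 8. Eif4g3/Eif4g1 was at -1.67, -1.77 and -1.42 in WT ovaries and from -5.40 to -2.57 in MP tumors, all 10 below the ovaries. The mean difference was -2.0 (exact permutation P = 0.0035, adjusted 0.0140). Eif4e3/Eif4e was at -0.06, -0.31 and -0.24 and from -6.06 to -0.69, also without overlap, a difference of -3.99 (exact permutation P = 0.0035, adjusted 0.0140). In every tumor, the RNA balance of both paralog pairs lay further toward Eif4g1 and Eif4e than in any ovary. A factor common to a library does not cancel fully for genes near or below 1 TPM, such as Eif4e3 in MP tumor 6 (0.706 TPM), and with 0.1 added in place of 1 the differences were -2.10 and -4.39 (adjusted exact permutation P = 0.0140 each).

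Eif4a2/Eif4a1 and Eif5a2/Eif5a were below every ovary in 8 and 9 of 10 tumors, with mean differences of -1.11 and -1.32, and did not pass (exact permutation P = 0.0524 and 0.0524, adjusted 0.105 for both). Both passed without MP tumor 9 (adjusted exact permutation P = 0.0455 each, differences -1.23 and -1.53). The remaining 4 ratios (Eef1a2/Eef1a1, Eif4ebp1/Eif4e, Eif1b/Eif1 and Eef2k/Eef2) differed by 0.35, -0.05, 0.26 and 0.47, with adjusted exact permutation P values from 0.545 to 0.934, and the tumors overlapped the ovaries in each. Within the IGO number of the ovaries, where 3 tumors against 3 ovaries cannot go below an exact P of 0.10, the differences of Eif4g3/Eif4g1 and Eif4e3/Eif4e were -1.79 and -5.03. In MP tumors 4 to 10 against the same ovaries they were -2.08 and -3.54, with adjusted exact permutation P values of 0.0667 and 0.1.

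**Figure D4:**
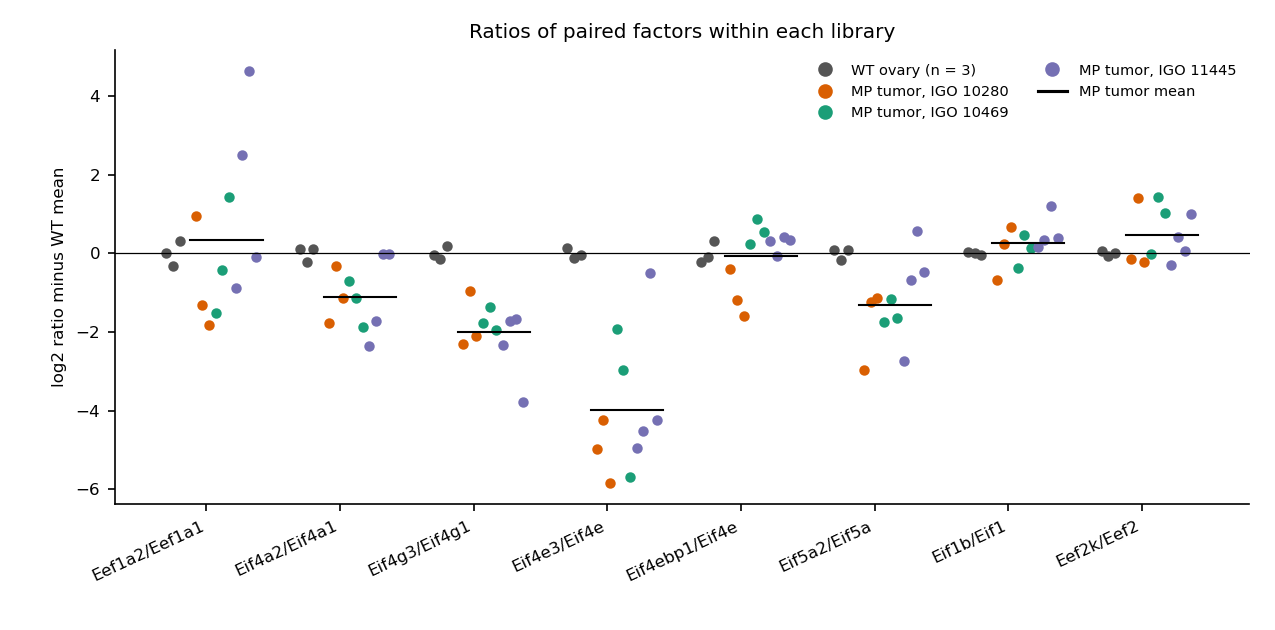
The 8 log2 ratios in each library, shown as the difference from the mean of the 3 WT ovaries, with points coloured by the IGO number and a bar for the mean of the 10 MP tumors. All tumors lie below the ovaries for Eif4g3/Eif4g1 and Eif4e3/Eif4e, and MP tumor 9 is the top point of Eef1a2/Eef1a1.

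The only tumors that share an IGO number with the ovaries are MP tumors 1 to 3, and against those ovaries 11 factors were called higher and 15 lower in limma (17.5% and 23.8%), beside 6.44% and 57.3% of all genes. The higher factors were Eef1a1, Eef1akmt4, Eef1b2, Eef1e1, Eef2kmt, Eif2s1, Eif3h, Eif3i, Eif3j1, Eif3k and Eif5a. The lower ones were Eef2, Eef2k, Eif3a, Eif3c, Eif3l, Eif4b, Eif4e1b, Eif4e3, Eif4ebp2, Eif4enif1, Eif4g1, Eif4g2, Eif4g3, Eif4h and Eif5b. The typical gene was itself 1.19 lower on the log2 scale in this comparison, and after median-of-ratios scaling 43 factors were higher and 6 lower, beside 25.8% and 33% of all genes. The 6 were Eif4e1b, Eif4e3, Eef2, Eef2k, Eif4ebp2 and Eif4g3 (-3.69, -2.87, -1.21, -0.99, -2.24 and -2.32), whereas Eif3a, Eif3c, Eif4b and Eif4g1 no longer passed. A left-out library moved the TPM counts from 7 (without MP tumor 3 or any ovary) to 29 (without MP tumor 2) higher and from 12 to 17 lower. The share of all genes called higher was 12.6% without MP tumor 2 (56.5% lower) and 5.13% without MP tumor 3 (55.1% lower). For the fits without MP tumor 1 or an ovary the share of all genes was not computed, so their counts have no background beside them. MP tumors 4 to 10 against the same ovaries gave 10 higher (Eef1akmt4, Eef1b2, Eef1g, Eif1a, Eif3d, Eif3g, Eif3k, Eif4ebp1, Eif5a and Eif6) and 3 lower (Eif4e1b, Eif4e3 and Eif4g3), beside 4.68% and 13.5%. In both comparisons, which share the ovaries, Eif5a had log2 fold changes of 1.78 and 1.63 (limma adjusted P = 0.00562 and 0.00742), Eef1b2 of 1.89 and 1.19 (0.00315 and 0.00381) and Eef1akmt4 of 2.84 and 1.63 (0.00267 and 0.0189). Other factors had unlike values in these comparisons. Eef2 had -2.79 and -0.20, Eef2k -2.43 and 0.31, Eif4g1 -1.97 and 0.67 and Eif4ebp2 -3.74 and -0.46.

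A direct test of MP tumors 1 to 3 against MP tumors 4 to 10, chosen after the values were seen, called 1 factor higher and 16 lower (limma), beside 1.29% and 30.1% of all genes, so the share of lower factors (25.4%) was near that of all genes. The 1 higher call was Eif2s1 (log2 fold change 1.38, standard error 0.42, adjusted P = 0.0247). The lower calls included Eif4ebp2 (-3.28), Eef2k (-2.74), Eif4g1 (-2.64), Eef2 (-2.58) and Eif4g3 (-2.35). MP tumors 1 to 3 were all below the other 7 for 14 factors and all above them for 0, where 28.7% and 0.805% of all genes were so placed. The direction of these counts depends on the scaling, since 29 factors were higher and 6 lower after median-of-ratios scaling, beside 13.6% and 9.88% of all genes, with Eef2, Eef2k, Eif4b, Eif4ebp2, Eif4g1 and Eif4g3 lower in both. Without MP tumor 2 the TPM counts were 5 higher and 10 lower, beside 1.99% and 16.4% of all genes, and without MP tumor 1 or MP tumor 3 0 were higher (2 and 1 at an unadjusted P value under 0.05 in limma), beside 0.579% and 0.266% of all genes. The lower counts were then 16 and 13, beside 27.3% and 20.3%. Of the marker lists of other cell types, stromal and endothelial markers had lower sums in MP tumors 1 to 3 than in any other tumor. The summed TPM of 4 stromal markers was 18.3 to 30.8 in them and at least 50.9 in every other tumor, with 1 of the 4 called lower. That of 3 endothelial markers was 3.68 to 12.4 against at least 18.7, with 3 of the 3 called lower. After median-of-ratios scaling 0 of the 4 and 1 of the 3 were called lower in limma (1 and 2 at an unadjusted P value under 0.05). The sums of the oocyte, granulosa, luteal, epithelial and leukocyte markers overlapped between MP tumors 1 to 3 and the others. The skeletal muscle sum was highest of all tumors in MP tumor 1 (1757 TPM), and the neuronal sum was highest in MP tumors 1 and 3 (112 and 83.4 TPM). Tubb3 alone reached 112 TPM, so the neuronal sum of MP tumor 1 was nearly all Tubb3. Among tumors Rbfox3 reached 30.1 TPM and Syt1 5.42 TPM, and Snap25 and Stmn2 stayed at or below 0.770 TPM. The part of stromal, endothelial or other marked cells in the lower factors was not tested. No ovary carries the IGO number of MP tumors 4 to 10, so what sets MP tumors 1 to 3 apart as tumors and what goes with the IGO number cannot be told apart.

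The fold changes in MP tumors 1 to 3 were set against coding length. Across the 63 factors, the Spearman rho between log2 fold change and the longest coding length in GENCODE vM21 was -0.37 for MP tumors 1 to 3 against WT and -0.23 for MP tumors 4 to 10 against WT. Across 14110 genes with a coding sequence it was -0.35 and -0.10, and the differences between the factors and all genes were not tested. These are relations across genes in the same libraries, which are not independent replicates. Within eIF3, where subunits of 1 complex can be compared, rho was -0.69 and -0.44 over 14 genes. With the merged exon length, which sets TPM, in place of the coding length, rho for MP tumors 1 to 3 was -0.20 over the factors, -0.04 within eIF3 and -0.41 over all 17277 genes. For MP tumors 4 to 10 it was -0.31, 0.05 and -0.19, so the order of the tumor sets over the factors and the pattern in eIF3 both depend on the length measure. In MP tumors 1 to 3 the long subunits Eif3a (4032 coding bases) and Eif3c (2733 bases) had log2 fold changes of -1.89 and -2.01, whereas the short Eif3k (654 bases), Eif3i (975 bases) and Eif3h (1056 bases) had 1.19, 2.19 and 1.58, each called in its direction by limma on TPM. The relation did not cover the lowest factors, since of the 4 lowest there only Eif4g3 (5286 bases, -3.77) has a long coding sequence. The others were Eif4e1b (750 bases, -4.47), Eif4e3 (621 bases, -4.19) and Eif4ebp2 (360 bases, -3.74). The mitochondrial share of TPM was 0.883%, 15.4% and 1.51% in MP tumors 1, 2 and 3, 1.73% to 5.56% in MP tumors 4 to 10 and 6.32% to 6.99% in the ovaries, and its part in the pattern was not tested. When a smooth trend with gene length was taken out of each library, an alternative added after the data were seen, 21 factors were called higher and 2 lower over all libraries, beside 11.2% and 9.9% of all genes.

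**Figure D5:**
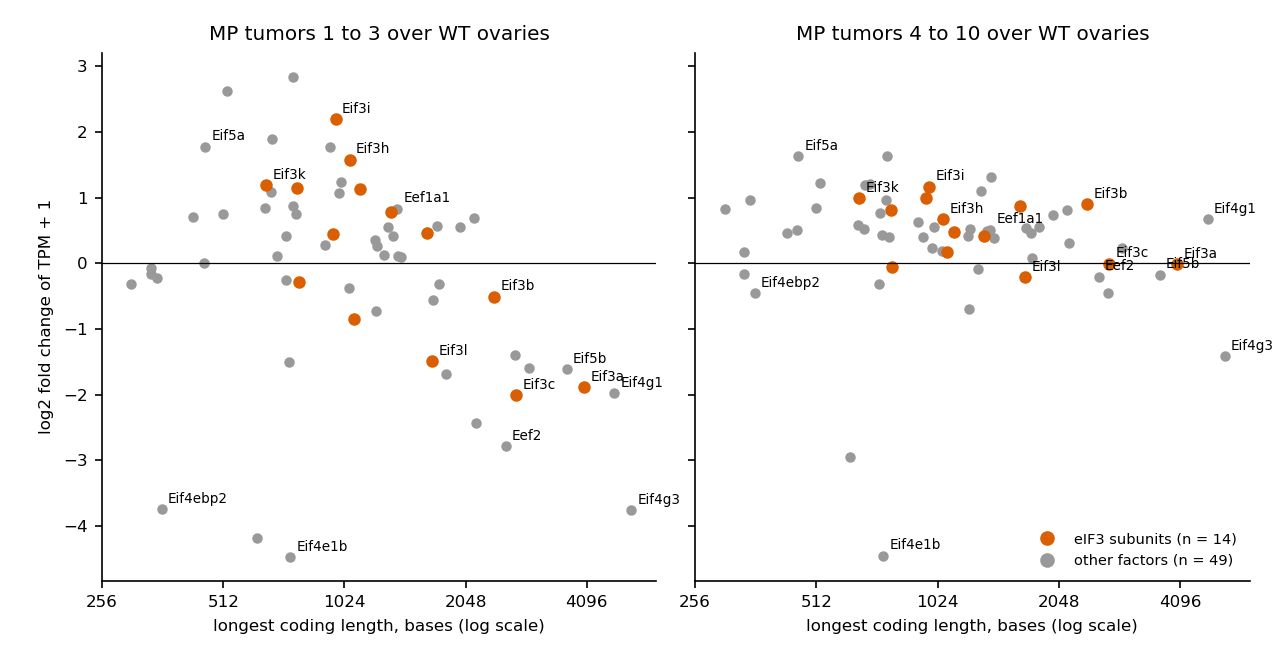
Log2 fold change of TPM + 1 against the longest coding length (log axis) for the 63 factors, for MP tumors 1 to 3 (left) and MP tumors 4 to 10 (right) over the same 3 WT ovaries, with eIF3 subunits in orange. On the left the longest subunits Eif3a and Eif3c lie near -2 and the short Eif3i above 2, and on the right the eIF3 subunits lie between -0.21 and 1.17.

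Because the tumors were made with a MYC transposon, the promoters of the factors were searched for the canonical E-box CACGTG, the letters MYC and MAX are known to bind. It reads the same on both strands. RefSeq promoter windows on GRCm38.p6, from 250 bases before to 50 after each gene start, were matched by symbol for 49 of the 65 factors (63 windows). At least 1 window held CACGTG in 13 of these 49 (26.5%), against 8.09% of all 27025 symbols with a window and 11.3% of the 11650 symbols among the genes tested. Of the 7 factors called higher, 4 had a window and 3 of these held the letters, at -74 from 1 of the starts of Eif5a, at -44 in Eif3k and at -92 in Eef1akmt4. Eif4e held it at -64 and -228. These 4 are shown from 110 bases before the start to 20 bases from it, 5′ to 3′ on the gene's strand, with CACGTG in capitals. The RefSeq start of Eif3k lies outside the GENCODE vM21 transcripts of the gene, so its -44 holds for the RefSeq start alone. The 4 are called factors with the letters or the main cap-binding gene (Eif5a at chr11:69921367-69921496, strand -; Eif3k at chr7:28981869-28981998, strand -; Eef1akmt4 at chr16:20611491-20611620, strand +; Eif4e at chr3:138527158-138527287, strand +).
Eif5a: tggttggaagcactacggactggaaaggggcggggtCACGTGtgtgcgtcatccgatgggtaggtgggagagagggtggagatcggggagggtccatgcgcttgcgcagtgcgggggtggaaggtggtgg
Eif3k: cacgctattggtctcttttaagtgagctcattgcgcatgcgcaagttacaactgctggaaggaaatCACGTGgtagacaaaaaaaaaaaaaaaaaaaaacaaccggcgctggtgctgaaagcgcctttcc
Eef1akmt4: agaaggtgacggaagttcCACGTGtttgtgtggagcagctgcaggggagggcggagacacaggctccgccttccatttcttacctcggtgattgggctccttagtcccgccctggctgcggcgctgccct
Eif4e: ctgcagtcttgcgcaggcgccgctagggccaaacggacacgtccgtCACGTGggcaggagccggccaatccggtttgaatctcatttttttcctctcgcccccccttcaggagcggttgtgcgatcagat

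The 13 factors with CACGTG had a median log2 fold change of 0.10 (from -0.98 to 1.99), and the 34 tested factors with a window but without it had 0.48 (from -2.12 to 1.65). Eef2, Eef2k, Eif3a, Eif3f, Eif4g1 and Eif4h were among those with the letters, beside Eif1b, Eif4a1 and Eif5a2. RNA of the mouse Myc gene itself was at 126 to 129 TPM in WT ovaries and from 7.09 to 419 TPM in MP tumors, below every ovary in 6 tumors. Whether RNA of the MYC transposon is counted in that gene was not tested.

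The wider translation pathway was described with 50 further genes, all of which could be tested. In limma, 0 were called higher and 1 lower over all libraries (0 higher and 5 lower at an unadjusted P value under 0.05), and their median log2 fold change was -0.18, between that of the factors and that of all genes. At the unadjusted P value 5.63% of all genes were higher and 27.4% lower. After median-of-ratios scaling 6 of the 50 were higher and 1 lower (median 0.51, beside 7.37% and 11% of all genes), and with the length trend removed 10 and 1 (beside 11.2% and 9.9%). Within the IGO number of the ovaries 2 were higher and 24 lower on TPM, beside 6.44% and 57.3%, where the median log2 fold change of all genes was -1.19. Median-of-ratios scaling turned that balance to 22 higher and 11 lower, beside 25.8% and 33% of all genes. The lower call over all libraries on TPM was Pabpc1l, a poly(A)-binding protein of oocytes (4.12 to 6.46 TPM in ovaries, 0 to 0.967 TPM in tumors, log2 fold change -2.13, limma adjusted P = 1.11e-04). The 8 enzymes of hypusine and diphthamide, the modified residues of eIF5A and eEF2, had a median of 0.49 on TPM with 0 called, and of 1.17 after median-of-ratios scaling with 3 called higher. Dhps, the first enzyme of hypusine synthesis, was at 30.8 to 34.2 TPM in ovaries and 28.6 to 145 TPM in tumors (log2 fold change 0.86, limma adjusted P = 0.156). The 4 eIF2 kinases, which slow initiation under stress, had medians of -1.29 on TPM and -0.65 after median-of-ratios scaling. The 6 genes of the mTOR group were Mtor and Rptor of the kinase complex that phosphorylates the 4E-binding proteins, the ribosomal protein S6 kinases Rps6kb1 and Rps6kb2, and the eIF4E kinases Mknk1 and Mknk2. Their medians were -0.92 and -0.27. In both groups together 0 of 10 were called (2 were lower at an unadjusted P value under 0.05 in limma). Within the IGO number of the ovaries 3 of the 4 eIF2 kinases and 6 of the 6 mTOR group genes were lower on TPM, beside 57.3% of all genes, and the same numbers were lower in MP tumors 1 to 3 against the other tumors, beside 30.1% and with a median of -0.84 over all genes. After median-of-ratios scaling 3 of 4 and 3 of 6 were lower within the IGO number, beside 33% of all genes, and 2 of 4 and 1 of 6 among the tumors, beside 9.88%.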

How the data were processed

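RNA-seq libraries of 3 WT ovaries and 10 MP tumors were analysed. Per the labels, polyA RNA was sequenced as single-end reads, and the processing notes name Trimmomatic 0.36, FastQC 0.11.5, STAR 2.5.3a, featureCounts 1.6.3 and mm10/GRCm38, while the extraction text names a human build and RPKM. The values behave as mouse TPM: the authors deposited TPM per gene, and 56 of the 65 members have the start and end of GENCODE vM21. Strand use in counting is not given in the sources used here. TPM is a share of the library, so a rise of a few genes lowers all others. Precision is set by depth, with 3892690 to 64013840 reads recovered per library, each of which is worth more TPM in the shallower tumors.

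Log2(TPM + 1) was fitted with limma 3.58.1 in R 4.3.3 (trend and robust) for genes at 1 TPM or more in at least 3 libraries, with Benjamini-Hochberg adjustment over 17277 genes and a threshold of 0.05. Positive fold changes are higher in MP tumors. The fit was tested on simulated data. Alternatives were a pseudocount of 0.1, filters (none, or 5 TPM), no trend or robust fitting, median-of-ratios scaling, quantile normalization, voom on recovered reads, the IGO number as a covariate, a replicate block and leaving out each library. Log2 ratios used an exact permutation test over libraries, 2-sided. Promoter windows came from RefSeq. The genes named were those past the threshold, the pairs of the 8 ratios, the 3 members with the highest mean in MP tumors, the member of each role with the largest moderated statistic and those not tested, plus a few chosen after their values were seen. The members and lists were chosen with earlier results of these data known. The labels do not tie WT and MP libraries of the same number to an animal, and their deviations from group means were uncorrelated (-0.05, 0.02 and -0.04), so they were not paired. The p-values measure the spread between these samples.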

Additional observations from a re-analysis of the deposited data

Results flagged for a closer look

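Of 73 measures (the TPM of each of the 65 members and the 8 ratios, over the 10 MP tumors), 11 had a highest or lowest tumor far from the rest by Dixon's test. Chance flags about 1 in 20 groups of normally distributed values, but TPM is skewed to high values and Eif2s3y, at 0 throughout, could not stand apart, so the number is not read as an excess. MP tumor 9 was far above the other tumors for Eef1a2 (61.2 TPM, next 11.8 TPM), Eif4e3 (43.5 TPM, next 14.6 TPM) and Eif4e1b (0.334 TPM, next 0.123 TPM, a value of a few reads). MP tumor 3 was highest for Eif3h (2588 TPM, next 1649 TPM), Eif3m (735 TPM, next 440.5 TPM), Eef1akmt4 (172 TPM, next 102 TPM) and Eif4e2 (113 TPM, next 70.8 TPM). The library labelled MP tumor 10 was highest for Eif4a2 (523 TPM, next 221 TPM), Eif2b4 (249 TPM, next 96.4 TPM) and Eef2k (89.7 TPM, next 48.7 TPM), and lowest for the log2 ratio Eif4g3/Eif4g1 (-5.40, next -3.96). It is also the tumor library with Trp53 RNA above the ovaries. The causes were not tested.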

How the results depend on the processing

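The count of higher factors over all libraries (7, beside 2.51% of all genes) moved with the scaling and the covariates. It was 15 with median-of-ratios scaling (7.37% of all genes), 20 with quantile normalization (11%) and 19 with voom on recovered reads (16%). With the IGO number as a covariate it was 15 (5.17%), and with the length trend removed 21 (11.2%). The count of lower factors (2) moved to 16 with the IGO number as a covariate, where 49.4% of all genes were lower, and to 15 with the replicate block (56.7%), which gave 9 higher (6.29%). In these data the block leaves the 6 libraries that share a number and is not supported by a pairing. Leaving out 1 library gave 1 to 9 higher and 1 to 3 lower. Within the IGO number of the ovaries (11 higher and 15 lower), median-of-ratios scaling gave 43 and 6, beside 25.8% and 33% of all genes. The replicate block gave 9 and 15, for which no share of all genes was computed. Leaving out 1 library gave 7 to 29 and 12 to 17, with 12.6% and 56.5% of all genes without MP tumor 2. Between MP tumors 1 to 3 and 4 to 10 (1 and 16), median-of-ratios scaling gave 29 and 6, beside 13.6% and 9.88%. Leaving out 1 library gave 0 to 5 and 10 to 16, with 1.99% and 16.4% of all genes without MP tumor 2.

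With MP tumors 4 to 10 only, the ratios Eif4g3/Eif4g1 and Eif4e3/Eif4e were -2.08 and -3.54. With 120 splits the smallest exact P value is 0.00833, so 1 ratio alone among 8 cannot reach an adjusted P value below 0.0667. The first ratio was at that limit (exact permutation P = 0.00833, difference -2.08 against -2.0 over all libraries). The second was not, with an exact permutation P of 0.025 (adjusted 0.10) and a difference of -3.54 against -3.99 over all libraries. Eif4ebp1/Eif4e changed sign to 0.37. Leaving out 1 library gave -2.11 to -1.80, -4.38 to -3.78, -1.23 to -0.97 (Eif4a2/Eif4a1), -1.53 to -1.13 (Eif5a2/Eif5a), -0.13 to 0.59 (Eef1a2/Eef1a1) and -0.17 to 0.12 (Eif4ebp1/Eif4e). Both of the first pair also missed the threshold without any 1 ovary, where fewer splits are possible.

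For the 25 named factors tested, 502 of 600 values kept their direction and side of the threshold, 44 lost the call, 31 gained it and 23 changed sign. The sign changes were Eif4a2 (0.12 with the length trend removed, 0.012 with median-of-ratios scaling, 0.021 with voom), Eif4g1 (0.67 with MP tumors 4 to 10, 0.79, 0.59, 0.16 with quantile normalization and 0.59 with voom, and -0.36 to 0.19 leaving out 1 library), Eef2k (0.31, 0.42, 0.15, 0.26 and 0.12 in the same order), Eif1 (0.39, 0.56 and 0.57 in the order of Eif4a2), and, with the IGO number as a covariate and with the replicate block, Eif4ebp1 (-0.22) and Eif1b (-0.078). The cause was not tested. MP tumors 4 to 10 only, the length trend and the comparison among tumors were chosen after seeing the data. The shallowest tumor, with 3892690 reads, limits what can be said of factors below about 1 TPM.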
